A study of Mus musculus with 2 samples.

Results

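The cells described here were oligodendrocytes of the aged mouse hippocampus that carried Klk6 RNA: 1335 of 31097 deposited cells, 750 of 15912 in the control library and 585 of 15185 in the tomatidine library. They were chosen by their counts of unique molecular identifiers (UMIs, 1 per captured probe molecule). A cell had at least 500 UMIs, at least 5 UMIs summed over Mog, Mag, Cldn11, Ermn and Opalin, at least 15 such UMIs per 10000, at least 3 times as many of these as of Pdgfra, Aqp4, Csf1r, Flt1 and Slc17a7 together, and at least 2 UMIs of Klk6. Each library was made from the pooled, flash-frozen hippocampi of 4 C57BL/6 mice that were 21 months old when the diets began. For 3 months the control mice ate standard chow and the treated mice ate chow with 0.05% tomatidine, a plant steroidal alkaloid that the study tested as a senomorphic, a compound that dampens the activity of senescent cells. RNA was read with the 10x Genomics Fixed RNA Profiling assay, in which probe pairs bind to fixed RNA, so a gene's level depends on its probes, and levels are compared here between cells and not between genes. With 1 pooled library per diet no test between the diets was possible, the animals within a pool could not be told apart, and every interval below is a 95% interval that covers counting error only.

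Oligodendrocytes wrap axons in myelin, the lipid-rich sheath that speeds conduction, and they also feed the axons they wrap. Mature oligodendrocytes are not uniform. In the mouse brain and spinal cord a branch marked by Klk6, often together with Hopx, S100b and Anxa5, is known best from white matter and caudal regions, and a branch marked by Ptgds and Il33 from grey matter and forebrain. Klk6 encodes kallikrein-related peptidase 6, a secreted trypsin-like serine protease that can cut myelin proteins and extracellular matrix and can act on protease-activated receptors. In the GENCODE annotation of mm10, the build of these files, the gene lies on the plus strand of chromosome 7 from 43824499 to 43832030, near its relatives Klk8 and Klk9.

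The label held by the oligodendrocyte markers examined. Levels are given in CPM, the counts of a gene summed over the cells and scaled to a common total of all their UMIs. Mbp, which compacts the sheath, had 3891 CPM in control Klk6 oligodendrocytes and 3890 in tomatidine ones. It had 1614 and 1380 in astrocytes, 1108 and 1040 in microglia, 668 and 562 in oligodendrocyte precursors, and 327 and 348 in excitatory neurons. Mobp, another myelin protein, had 3308 and 3245 CPM, against 995 and 793 in astrocytes and 169 and 170 in excitatory neurons. Sox10 and Myrf, transcription factors of the lineage, had 612 and 591 CPM and 790 and 698 CPM. Oligodendrocyte precursors had more Sox10, 812 and 749 CPM, so Sox10 does not part the members from them. Myrf had 80.5 and 56.8 CPM in precursors. The cells were chosen by Mog, Mag and Cldn11, so the levels of these genes do not bear on the label. Mog had 1636 CPM in control and 1477 in tomatidine cells, Mag 3501 and 3229, and Cldn11, the tight junction protein of myelin, 4791 and 3920.

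The rule itself held down 5 markers of other cells, which had 40.7 and 58.5 CPM for Aqp4, 60.8 and 43.6 for Csf1r, 6.0 and 9.6 for Flt1, 41.0 and 27.9 for Pdgfra, and 224 and 198 for Slc17a7, each in control and then tomatidine cells. Outside the rule, Snap25, a synaptic protein of neurons, had 777 and 1033 CPM. The rule asks for a count of Klk6 UMIs, which by its form favours deep cells, and Klk6 oligodendrocytes were deep. Their median depth was 8862 UMIs in control (range 1406 to 121611) and 8801 in tomatidine (1101 to 86960), against 5155 and 4813 UMIs in oligodendrocytes without a Klk6 UMI. More than 6000 genes were detected in 91 control cells (12.1%) and 79 tomatidine cells (13.5%), and these cells held 38.7% and 42.6% of the UMIs, so the comparisons below were repeated without them. In its section on quality control, the study discarded cells with more than 6000 genes, set a limit on mitochondrial transcripts and removed doublets with DoubletFinder. The main values below keep the cells with more than 6000 genes. No doublet caller was run here, and the part of doublets in these deep cells was not tested. Of the cell barcodes, 292 occurred in both libraries, but none of them among Klk6 oligodendrocytes.

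Most members were not close to the limits of the marker rule, but many were close to that on Klk6. Cells with exactly 2 Klk6 UMIs, just inside the rule, numbered 136 in control and 108 in tomatidine, and cells with 1 UMI, just outside it, numbered 334 and 233. On the limit of 3 times the other markers, 25 and 34 members lay between 3 and 5 times, and 12 and 15 cells lay outside it between 2 and 3 times. Only 3 and 6 members lay between 15 and 20 marker UMIs per 10000.

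Klk6 RNA lay mainly in oligodendrocytes. Oligodendrocytes held 90.8% of the Klk6 UMIs of control mice and 88.2% of those of tomatidine mice, with 87.7% and 85.3% in the cells with at least 2. Of the other classes, at least 2 Klk6 UMIs were found in 0.681% of control and 1.13% of tomatidine astrocytes, in 0.984% and 0.657% of microglia, and in 0.693% and 0.861% of excitatory neurons, whose median depth of 15708 and 15088 UMIs was above that of oligodendrocytes (5761 and 5453.5). After each cell was thinned to 1500 UMIs, no class other than oligodendrocytes exceeded 0.246%. The Klk6 level per cell was spread widely: the median was 6 UMIs in both libraries and the highest cells held 208 in control and 158 in tomatidine.

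The share of oligodendrocytes that met the Klk6 threshold did not differ between the diets beyond counting error. It was 20.7% (95% exact interval 19.4 to 22.0) of 3627 control oligodendrocytes and 20.3% (18.9 to 21.8) of 2878 tomatidine oligodendrocytes, a difference of −0.352 percentage points (−2.32 to 1.63). Thinned to 1500 UMIs, with 62 and 75 shallower cells left out, the shares were 8.78% and 8.85%, a difference of 0.0638 points (−1.33 to 1.49). As a share of all cells, in contrast, Klk6 oligodendrocytes were 4.71% in control and 3.85% in tomatidine (−0.86 points, −1.31 to −0.41), and all oligodendrocytes were 22.8% and 18.96%. The summed Klk6 level was 1008 CPM in control members and 924 CPM in tomatidine members, a log2 ratio of −0.13 (−0.17 to −0.08). Among members with at most 6000 genes and at most 10% mitochondrial UMIs it was −0.03 (−0.09 to 0.02), within counting error. Over all oligodendrocytes the level was 314 and 267 CPM, a log2 ratio of −0.24 (−0.28 to −0.19).

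**Figure D1:**
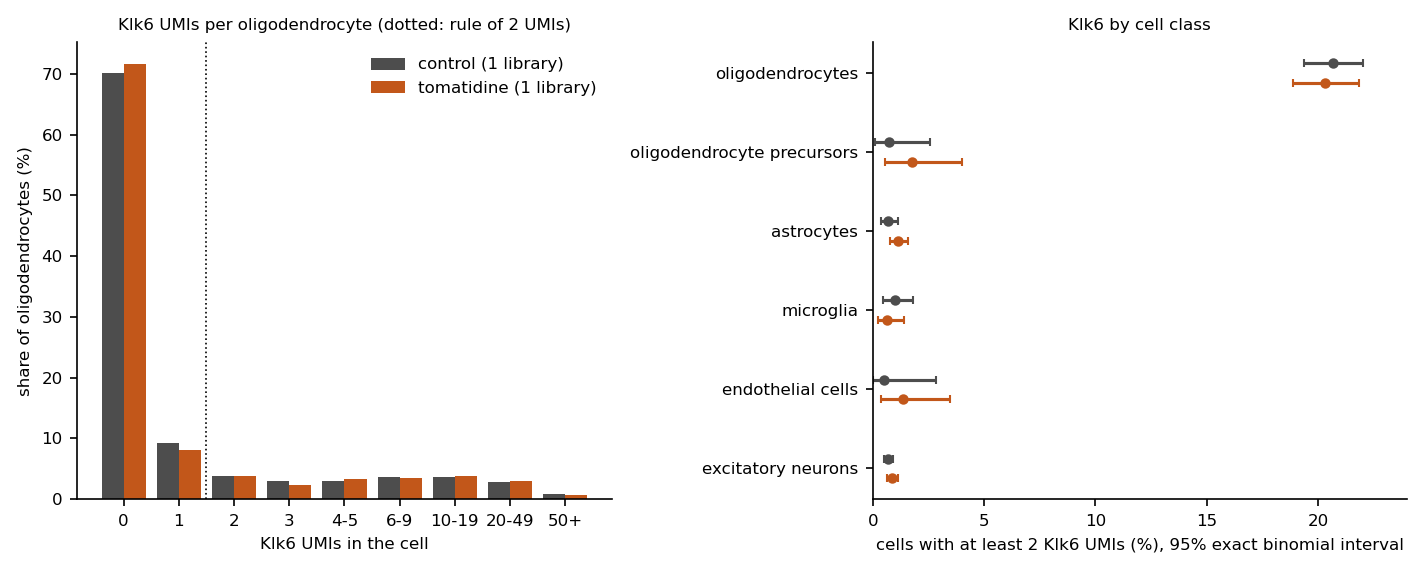
Klk6 in single cells. Left, share of oligodendrocytes (%) by the number of Klk6 UMIs in the cell, with the threshold of 2 UMIs dotted; right, share of cells (%) with at least 2 Klk6 UMIs in each cell class, with 95% exact binomial intervals (counting error only), for the libraries of control mice (grey) and tomatidine mice (orange). The oligodendrocyte shares are 20.7% and 20.3%, and the other classes lie between 0.513% and 1.75%.

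Klk6 oligodendrocytes were then set against the oligodendrocytes of the same library in which no Klk6 UMI was found, 2543 in control and 2060 in tomatidine. Klk6 chose both sides of this contrast, so it is a description with no test, and a like value in the other library is no independent support. Of 9527 genes with enough UMIs, 124 (1.3%) were at least 1.5-fold higher in Klk6 cells in both libraries and 79 (0.829%) at least 1.5-fold lower. The median log2 ratio of all these genes was −0.07 in control and −0.08 in tomatidine, and 23.3% of them were higher and 53.6% lower in both libraries, which is the base for the counts of list members that follow. Each list is counted over its members with enough UMIs.

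A secreted protease inhibitor, a calcium-binding protein and a lipid carrier stood at the high end. Serpina3n (chromosome 12, 104406729 to 104414329), an inhibitor of serine proteases, had 1064 CPM in Klk6 cells and 250 CPM in cells without Klk6 in the control library, and 879 and 158 CPM in the tomatidine library, log2 ratios of 2.09 and 2.47. It was detected in 82.1% of control Klk6 cells against 45.1% of those without, and after thinning to 1500 UMIs in 55.2% against 23.2%. S100b (chromosome 10, 76253853 to 76261159), a calcium-binding protein, had 319 against 85.5 CPM in control and 346 against 79.1 CPM in tomatidine. Apod (chromosome 16, 31296192 to 31314808) encodes apolipoprotein D, which carries small lipids. Every Klk6 oligodendrocyte in both libraries held Apod UMIs, as did 99.4% of control and 99.3% of tomatidine oligodendrocytes without Klk6. The median was 145.5 UMIs per control Klk6 cell and 112 per tomatidine Klk6 cell, against 27 and 21 in cells without Klk6. Its level was 17441 against 5891 CPM in control and 12074 against 3843 CPM in tomatidine, log2 ratios of 1.57 and 1.65.

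The gene with the highest ratio was scarce. Nkx2-9 (chromosome 12, 56611389 to 56613284), a homeobox transcription factor, had 41.9 against 5.38 CPM in control (log2 2.96, 2.64 to 3.29) and 42.6 against 2.61 CPM in tomatidine (4.02, 3.57 to 4.51). It was found in 28.8% and 27.2% of Klk6 cells, in 2.91% and 1.46% of oligodendrocytes without Klk6, and in at most 0.59% of the cells of any other class examined. Hopx, a homeodomain protein without DNA binding of its own, had 444 against 148 CPM in control and 391 against 90.7 CPM in tomatidine. Enpp6, a choline phosphodiesterase best known from newly formed oligodendrocytes, had 328 against 112 CPM and 275 against 69.5 CPM. Serpind1, which encodes heparin cofactor II, another serine protease inhibitor, had log2 ratios of 2.03 and 2.35, and Aldh1l2, a mitochondrial enzyme of folate metabolism, 1.76 and 1.78. Smtnl2 (1.66 and 2.02) and the tetraspanin Tspan9 (1.57 and 1.58) completed the 10 highest. No single cell held more than 3.5% of the Klk6-cell UMIs of any of these 10 genes.

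Ptgds was the broadly expressed gene at the low end. Ptgds (chromosome 2, 25466709 to 25470046), which encodes prostaglandin D2 synthase, had 2398 CPM in control Klk6 cells against 8567 in cells without Klk6, and 2093 against 7514 in tomatidine, a log2 ratio of −1.84 in both. Its median was 6 UMIs per control Klk6 cell and 5 per tomatidine Klk6 cell, against 42 and 40 in the shallower cells without Klk6. After thinning, 65.9% and 64.0% of Klk6 cells held a Ptgds UMI, against 95.8% of the cells without Klk6 in both libraries. In astrocytes 48.5% and 50.7% did so after thinning, and in excitatory neurons 22.2% and 25.5%. Gabrr2, a GABA receptor subunit, was in 10.7% of control and 5.30% of tomatidine Klk6 cells against 16.8% and 16.3% of the others (log2 ratios −1.29 and −1.90).

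The other genes reported from the low end were found in few cells. Mgp, a matrix protein of vessel walls, had log2 ratios of −3.61 and −2.61 but was present in 1.73% to 3.45% of cells, and 55.6% of its UMIs in control Klk6 cells came from 1 cell. Fn1, the matrix protein fibronectin, had −3.14 and −2.30, with 47.3% of its UMIs in the control cells without Klk6 from 1 cell. The interneuron peptide Sst (−2.22 and −1.57) had 43.7% and 45.9% of its Klk6-cell UMIs in 1 cell of each library. Vtn, Col19a1, Igfbp6 and Gng4 were each found in 3.60% to 12.5% of cells. Endothelial cells had 1668 and 1425 CPM of Fn1 and 2794 and 2868 CPM of Vtn, and the part of RNA from other cells in these ratios was not tested.

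**Figure D2:**
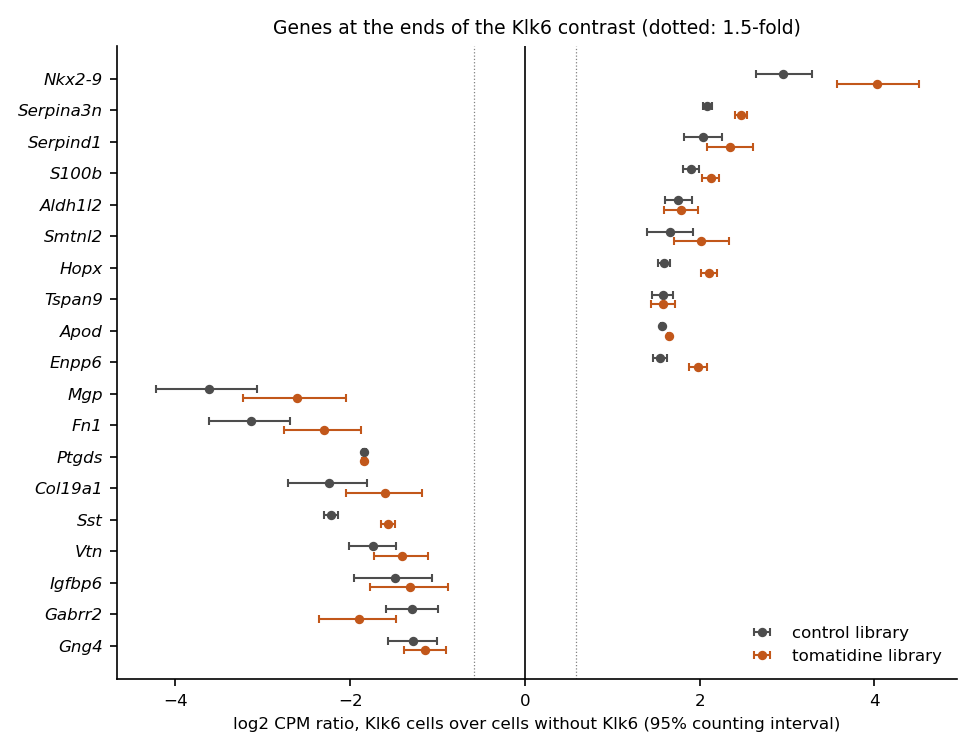
The genes reported from the high and low ends by Klk6 cells over cells without Klk6: log2 CPM ratio (horizontal axis) in each of the 2 libraries, with 95% counting intervals; dotted lines mark 1.5-fold. Nkx2-9 reaches 2.96 and 4.02, and Ptgds lies at −1.84 in both.

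Levels of single genes were then followed along the number of Klk6 UMIs, the count that also chose the cells. Depth rose along the same bins, and whether the levels were graded or split between separate states was not tested. From cells with 0, 1, 2 to 3, 4 to 9 and 10 or more Klk6 UMIs, Serpina3n had 250, 442, 540, 826 and 1521 CPM in control and 158, 289, 498, 643 and 1307 CPM in tomatidine. Apod had 5891, 8576, 11189, 12888 and 24057 CPM in control and 3843, 5706, 7331, 9421 and 17165 CPM in tomatidine. Ptgds ran the other way, with 8567, 6177, 4019, 2570 and 1374 CPM in control and 7514, 5323, 3067, 1896 and 1639 CPM in tomatidine. The cells with 1 Klk6 UMI, which belonged to neither side of the contrast, lay between the cells with 0 and those with 2 to 3 for all 3 genes in both libraries.

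The complement gene C4b followed Serpina3n, from 1967 CPM at 0 Klk6 UMIs to 4550 at 10 or more in control and from 1057 to 3341 in tomatidine. Trf, which encodes the iron carrier transferrin, went from 6409 to 14684 CPM and from 5155 to 13993 CPM. Mbp, in contrast, had 4186 and 3778 CPM in the outer bins of the control library and 3861 and 4106 in those of the tomatidine library, and Mog 1405 and 1708 CPM and 1212 and 1656 CPM. Median depth went from 5155 to 11345 UMIs along the same bins in control and from 4813 to 10935 in tomatidine. With the cells without Klk6 weighted to the depth of the Klk6 cells, the log2 ratios were 2.25 and 2.69 for Serpina3n, 1.71 and 1.85 for Apod and −1.60 and −1.66 for Ptgds, close to the unweighted values.

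**Figure D3:**
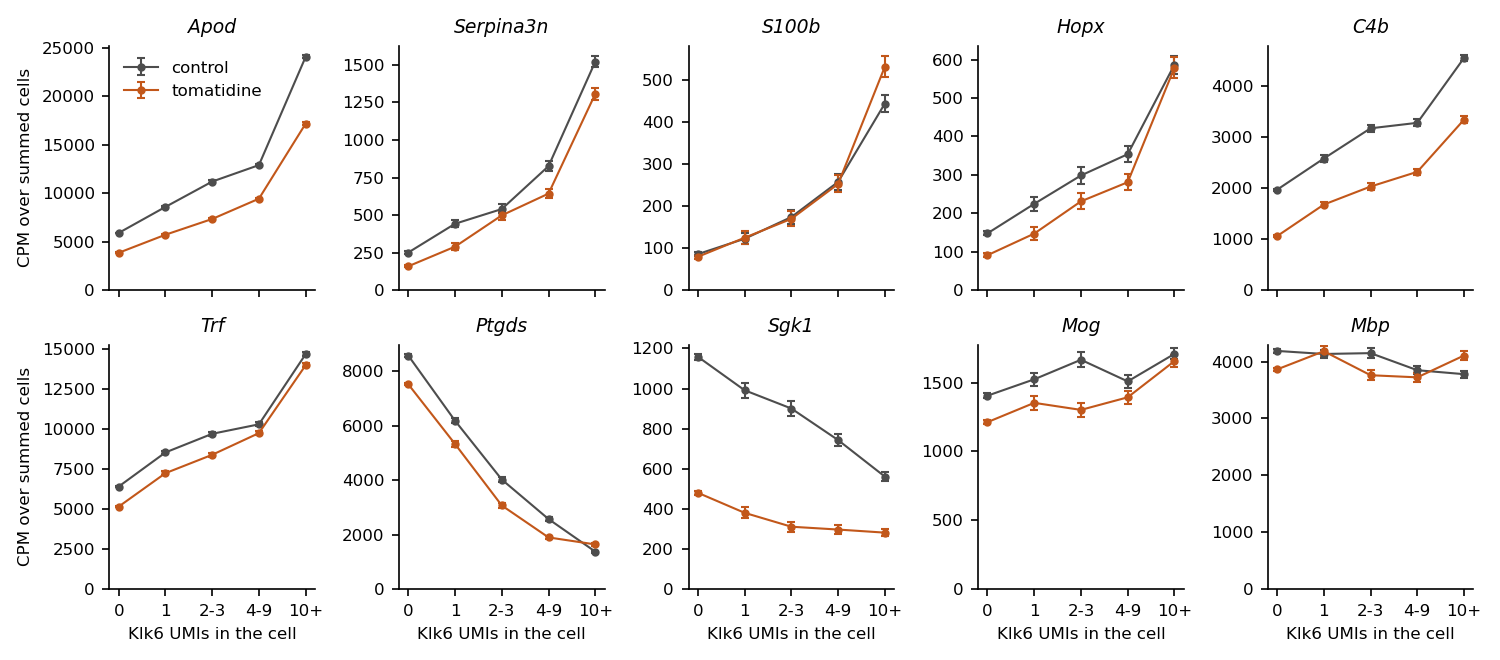
Level (CPM over the summed cells, vertical axis from 0) of single genes in oligodendrocytes grouped by their Klk6 UMIs (horizontal axis: 0, 1, 2 to 3, 4 to 9, 10 or more) in the control and tomatidine libraries. In control, Apod runs from 5891 to 24057 CPM and Ptgds from 8567 to 1374 CPM, while Mog stays between 1405 and 1708.

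Among gene lists, the known companions of Klk6 stood highest. The lists were chosen with earlier results of these data known, so this rank is a description and no independent support. All 12 of them had enough UMIs, 11 were higher in both libraries and 8 were at least 1.5-fold higher, with medians of 0.84 and 0.98 (log2) against −0.07 and −0.08 for all genes. The 8 were S100b, Hopx, the calcium- and lipid-binding annexins Anxa5 (1.03 and 1.33) and Anxa2 (1.03 and 1.58), the actin-severing protein Gsn (0.92 and 1.23), the complement inhibitor Cd59a (0.98 and 0.92), the protease inhibitor Serpinb1a (0.77 and 1.04) and Hapln2, a link protein of the matrix at nodes (0.62 and 0.74). Glul, glutamine synthetase, had the lowest ratios of the list, −0.05 and 0.07. Genes of the Ptgds-type state did not move as 1 group: 7 of 11 were lower and 3 higher in both libraries, with Ptgds at the low end and Apod at the high end, while Il33 had −0.21 and −0.09 and Trf 0.92 and 1.11.

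No myelin gene reached 1.5-fold in both libraries in the unweighted comparison with cells without Klk6. Of 18 myelin protein genes 11 were higher and 5 lower in both libraries, none by 1.5-fold in both, with medians of 0.11 and 0.18. Ermn, a cytoskeletal protein of late myelination, was highest (0.46 and 0.58) and Opalin, a membrane protein of the sheath, lowest (−0.59 and −0.54). Ermn and Opalin, like Mag, Mog and Cldn11, belong to the marker rule that chose the cells on both sides, so their ratios are only described. Of 18 genes of myelin lipid synthesis 16 were higher in both libraries (medians 0.22 and 0.27), led by Gal3st1, which makes sulfatide (0.50 and 0.61), and of 24 genes of cholesterol synthesis 18 were higher (0.26 and 0.14). None of these genes reached 1.5-fold in both libraries, but with the cells without Klk6 weighted to the depth of the Klk6 cells some did: Ermn (0.61 and 0.65), Mag (0.60 and 0.64), Gal3st1 (0.69 and 0.71) and the fatty acid elongases Elovl1 (0.69 and 0.74), Elovl5 (0.64 and 0.75) and Elovl7 (0.66 and 0.82). Of 18 genes of axon contact and gap junctions, 9 were higher and 8 lower in both libraries, and the connexin Gjb1 reached 1.5-fold (0.75 and 0.97).

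Among 12 transcription factors of the lineage, 7 were higher and 4 lower in both libraries. Nkx2-2 was highest (0.44 and 0.74), and Zfp488, a repressor tied to differentiation, was lowest (−1.12 and −0.99). Genes of newly formed cells were lower for 7 of 10, with medians of −0.26 and −0.32 and Gpr17, a receptor of committed precursors, at −1.06 and −1.94, whereas Enpp6 from the same list was at the high end. Gpr17 was found in 5.47% of control and 3.59% of tomatidine Klk6 cells.

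Disease-associated genes were divided. Of 12, Serpina3n, C4b (0.96 and 1.33) and Fxyd1, a regulator of the sodium pump (0.71 and 1.28), were at least 1.5-fold higher, and none was so much lower, but the list medians were −0.05 and 0.27. With depth weighting Fxyd1 had 0.54 and 1.25, below 1.5-fold in control. Among the major histocompatibility complex (MHC) class I genes, the heavy chains H2-D1 (−0.16 in control and 0.66 in tomatidine) and H2-K1 (−0.11 and 0.75) had ratios of opposite sign in the libraries, and the light chain B2m was above 0 in both (0.18 and 0.55). Of 8 interferon response genes with enough UMIs, of 30 in the list, 4 were higher and 3 lower in both libraries and none reached 1.5-fold.

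Of 15 genes of the glucocorticoid response 11 had enough UMIs, and all 11 were lower in Klk6 cells in both libraries, with medians of −0.34 and −0.26. Pdk4, a kinase that restrains pyruvate use and which lay below the minimum here, had 0.61 and 0.39. Sgk1, a kinase induced by corticosteroids, had 701 against 1158 CPM in control and 294 against 480 CPM in tomatidine, log2 ratios of −0.72 and −0.71, and Plin4, a coat protein of lipid droplets, −0.89 and −1.12. These ratios depended on depth. With the cells without Klk6 weighted to the depth of the Klk6 cells they were −0.45 and −0.55 for Sgk1 and −0.40 and −0.65 for Plin4. Of 15 immediate early genes 5 were higher and 5 lower in both libraries, with Fos at 0.80 and 0.42 and Nr4a1 at −0.54 and −0.76.

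The protease system around Klk6 was sparse. Of 24 kallikreins, protease-activated receptors and serine protease inhibitors, 7 had enough UMIs: 3 were higher, among them Serpina3n and Serpinb1a by at least 1.5-fold, and 4 lower, with Serpini1, the inhibitor neuroserpin of neurons, at −0.97 and −0.92. Klk9 (43791891 to 43796757 on chromosome 7) fell below the minimum, with 39 UMIs in control Klk6 cells against 3 in cells without Klk6 and 29 against 4 in tomatidine, and Klk8 (43797577 to 43803826) had 77 against 75 and 33 against 53. As these genes are near-relatives of Klk6 on the same stretch of chromosome 7, the part of probe cross-reaction was not tested. Of 6 known substrates of the protease with enough UMIs, Mog had 0.22 and 0.29, App, the amyloid precursor protein, 0.08 and 0.13, and Fn1, in few cells, was the lowest.

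The stress lists had medians near that of all genes. Of 18 genes of the ATF4 branch 9 were higher and 7 lower in both libraries, Aldh1l2 and the growth-arrest gene Gadd45a (1.19 and 1.01) by at least 1.5-fold, with the gluconeogenic enzyme Pck2 lowest (−0.61 and −0.50). Of 12 heat shock genes 8 were lower and 3 higher, where 53.6% of all genes were lower in both libraries, and the co-chaperone Bag3 was at least 1.5-fold higher (0.64 and 0.73). Of 12 cell cycle inhibitors and p53 targets 7 were lower and 3 higher, none by 1.5-fold. Of 7 iron genes 5 were higher, led by Trf, with medians of 0.22 and 0.13.

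Markers of other cells differed between the sides of this contrast too. Summed over 10 genes, neuronal markers had 2582 CPM in control Klk6 cells against 3398 without Klk6 and 3107 against 4103 in tomatidine, with all 10 lower in both libraries and Snap25 the most abundant (777 and 1033 CPM). Astrocyte markers had 1979 against 2466 and 2062 against 2309. Markers of oligodendrocyte precursors had 442 against 373 CPM in control and 321 against 359 in tomatidine, with Pdgfra at 41.0 against 22.8 and 27.9 against 14.4, and endothelial markers had 163 against 194 and 204 against 200.1. Microglial markers had 864 against 531 CPM in control and 568 against 508 in tomatidine. Ttr, the choroid plexus transcript for transthyretin, had log2 ratios of −2.12 and −0.39. The part of these other cells in the ratios above was not tested. Among cells with at most 6000 genes and at most 10% mitochondrial UMIs, 7 companions of Klk6 were still at least 1.5-fold higher, but 283 genes in all were at least 1.5-fold lower, 4 of the neuronal markers among them.

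**Figure D4:**
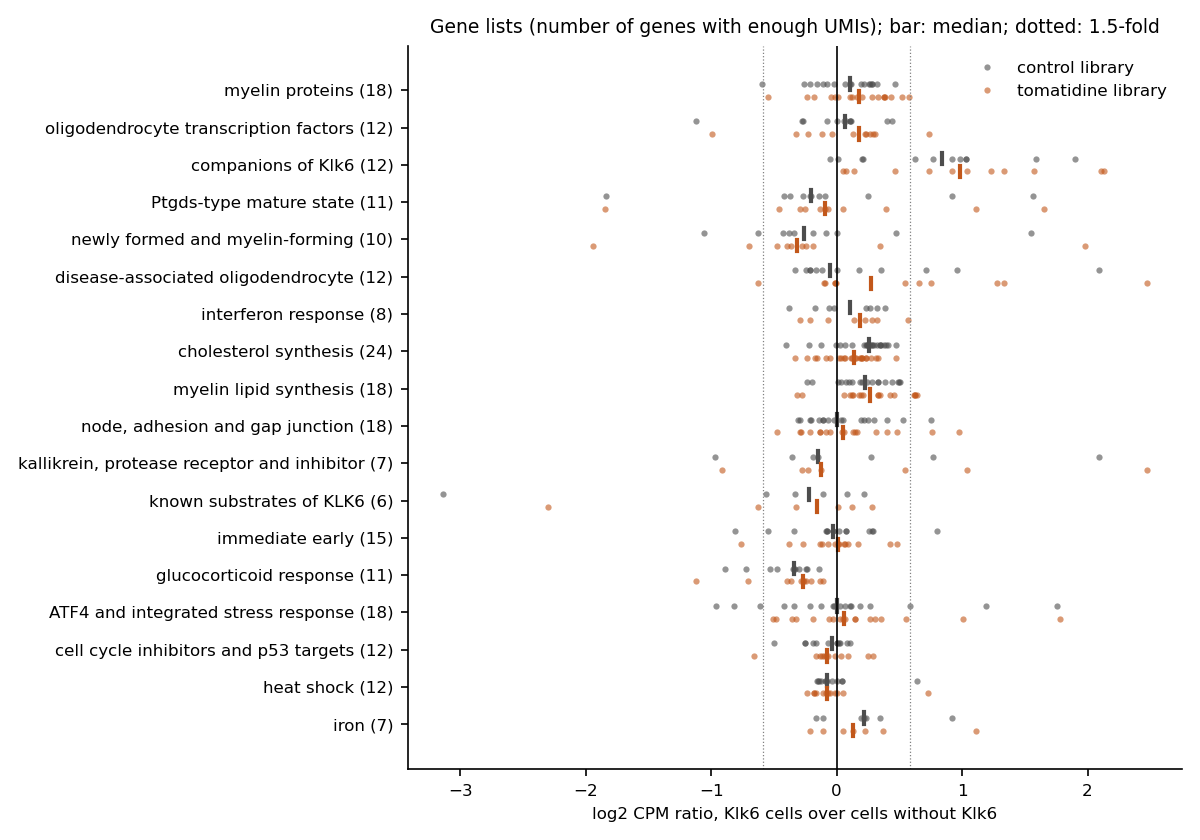
Log2 CPM ratio, Klk6 cells over cells without Klk6 (horizontal axis), for every gene with enough UMIs in each list (number in brackets), with 1 point per gene and library, the list median as a bar and 1.5-fold dotted. The companions of Klk6 have the highest medians, 0.84 and 0.98, and the glucocorticoid response genes lie at or below −0.11.

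Between the diets, the Klk6 oligodendrocytes of the 2 libraries were compared by summed UMIs, 9343682 in control and 7520330 in tomatidine. Of 9418 genes with enough UMIs, 252 (2.68%) were at least 1.5-fold higher in tomatidine and 64 (0.68%) at least 1.5-fold lower, with a median log2 ratio of 0.04 over all of them and 58.4% higher and 41.6% lower at any size. Fewer genes passed without the deepest cells. Among the 659 control and 506 tomatidine cells with at most 6000 genes and at most 10% mitochondrial UMIs, 38 genes were at least 1.5-fold higher and 17 lower of 7286 with enough UMIs. Of these, 19 and 14 were also among the 252 and 64.

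At the high end of this ranking, 3 genes rested largely on 1 cell each. Rarres2 had 2.14 CPM in control and 35.4 in tomatidine, but 87.2% of its tomatidine UMIs came from 1 cell, and without the highest cell of each library its log2 ratio was 1.40 in place of 4.05. The interneuron peptide Vip had 91.0% of its tomatidine UMIs in 1 cell and went from 3.72 to 0.39 without it, and Pltp, a phospholipid carrier, had 68.3% and went from 1.81 to 0.46. The others were Tac1, the precursor of substance P (1.95), Itm2a, a marker of endothelial cells (1.86), the synaptic organiser Cbln2 (1.85), Sema3f (1.59), the glutamate transporter Slc1a6 (1.53), the glutamate receptor Grm8 (1.43) and Plcxd3 (1.40). Each of these 7 was found in 3.33% to 18.0% of Klk6 cells. All 7 were also higher in tomatidine among the oligodendrocytes without Klk6, by 0.35 to 1.45. With the limits on genes and mitochondrial UMIs none of the 7 had enough UMIs for the ranking, and Cbln2 had 0.61 (−0.32 to 1.55), Sema3f 0.95 (−0.25 to 2.20) and Slc1a6 0.90 (−0.05 to 1.89), all within counting error of 0, while Itm2a had 2.23 (1.59 to 2.92), Tac1 1.63 (0.61 to 2.74), Plcxd3 1.60 (0.75 to 2.52) and Grm8 0.92 (0.40 to 1.45).

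At the low end, Ttr was the gene of many cells. It had 369 CPM in control and 62.9 CPM in tomatidine, and was found in 87.9% of control and 24.1% of tomatidine Klk6 cells, a log2 ratio of −2.55 (−2.69 to −2.41). In oligodendrocytes without Klk6 the ratio was larger, −4.29, with 1606 and 82.3 CPM. Prl, the pituitary hormone prolactin, had −6.90 with 96.6% of its control UMIs in 1 cell. Dlk1 (−2.03), Spp1 (−1.89), Crhbp (−1.62), Rgs9 (−1.45), Ppp1r1b (−1.45) and Penk (−1.43) were each found in 1.47% to 18.3% of Klk6 cells, and 4 of these 6, all but Dlk1 and Ppp1r1b, had log2 ratios between −0.33 and 0.47 under the same limits. A single control cell held 60.6% of the control UMIs of Spp1, 51.7% of Crhbp, 47.2% of Dlk1 and 44.6% of Penk. Without the highest cell of each library the log2 ratios were −0.82 for Spp1, −0.92 for Crhbp and −0.96 for Penk. They were −2.67 for Dlk1, −1.05 for Rgs9 and −1.39 for Ppp1r1b. Rgs9, Ppp1r1b and Penk are known from striatal neurons. Gpr17 had −1.47, and −1.46 under the limits.

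Sgk1 was the most widely detected of the genes that reached 1.5-fold and are named here. It had 701 CPM in control and 294 CPM in tomatidine, with a median of 5 UMIs and 1 UMI per cell, and was found in 91.6% and 67.4% of cells. The log2 ratio was −1.25 (−1.32 to −1.18), and −1.22 with the limits on genes and mitochondrial UMIs. In oligodendrocytes without Klk6 it was −1.27 (1158 and 480 CPM), so that the difference was not particular to Klk6 cells. Sgk1 (chromosome 10, 21882184 to 21999903) was lower in the tomatidine library in every other class examined: 110 and 60.0 CPM in astrocytes, 301 and 219 in microglia, 184 and 127 in oligodendrocyte precursors, 221 and 154 in endothelial cells, and 90.5 and 74.6 in excitatory neurons.

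The glucocorticoid targets differed from one another. Of 12 with enough UMIs, Sgk1 included, 8 were lower in tomatidine Klk6 cells and 4 higher. Sgk1 was among the 4 that were at least 1.5-fold lower, and the list median was −0.43. Nfkbia, an inhibitor of NF-kappaB, had 96.3 and 49.5 CPM (−0.96), Plin4 had 223 and 119 CPM (−0.91), and Pdk4 had 26.4 and 15.3 CPM (−0.79). The clock gene Per1 had −0.50 and Ddit4, an inhibitor of mTOR signalling, −0.49. Tsc22d3, the glucocorticoid-induced leucine zipper, had 0.16, the metallothionein Mt1 0.06 and the receptor chaperone Fkbp5 0.13. In the cells with the limits on genes and mitochondrial UMIs the same number of the list, 4, was at least 1.5-fold lower, with a median of −0.36.

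MHC class I genes were lower in the tomatidine library. B2m (chromosome 2, 122147686 to 122153083), the light chain of all class I molecules, had 80.9 CPM in control and 40.3 CPM in tomatidine Klk6 cells and was found in 42.1% and 28.2% of them, a log2 ratio of −1.01 (−1.20 to −0.81). H2-D1 (chromosome 17, 35262730 to 35267499) had 56.6 and 30.5 CPM (−0.89, −1.12 to −0.67) and H2-K1 59.0 and 37.8 CPM (−0.64, −0.85 to −0.43). These were the 3 genes of 13 on the disease-associated list that reached 1.5-fold. The ratios in oligodendrocytes without Klk6 were further from 0: −1.37 for B2m, −1.72 for H2-D1 and −1.51 for H2-K1. In microglia B2m had 568 CPM in control and 420 in tomatidine, and in endothelial cells 292 and 380.

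Microglial markers were lower in the tomatidine Klk6 cells as well, 8 of 8 genes and 5 of them by at least 1.5-fold (summed 864 and 568 CPM). In oligodendrocytes without Klk6 their median ratio was −0.02. Among the 169 control and 139 tomatidine Klk6 cells that held no UMI of 17 microglial and endothelial markers, B2m had −0.82 (−1.31 to −0.34), H2-D1 −1.10 (−1.68 to −0.54) and H2-K1 −0.82 (−1.44 to −0.24). Sgk1 had −1.15 and Nfkbia −1.35 in the same cells. The part of RNA from microglia and endothelial cells, including free RNA, in these ratios was not tested.

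The genes that mark Klk6 cells differed less. C4b had 3818 CPM in control and 2665 in tomatidine (−0.52, −0.54 to −0.49), −0.29 with the limits on genes and mitochondrial UMIs and −0.25 in the cells free of the 17 markers. Apod had 17441 and 12074 CPM (−0.53), and −0.25 in the marker-free cells. Serpina3n had 1064 and 879 CPM (−0.28), −0.07 with the limits and 0.07 (−0.04 to 0.18), of opposite sign and within counting error, in the marker-free cells. Hopx had 444 and 391 CPM (−0.18) and S100b 319 and 346 (0.11). In oligodendrocytes without Klk6 the ratios were −0.90 for C4b, −0.62 for Apod, −0.66 for Serpina3n, −0.70 for Hopx and −0.11 for S100b, each below that in Klk6 cells. With the limits this order turned for Apod, −0.39 in Klk6 cells and −0.38 without Klk6, and held for the other 4; the differences were not tested. Companions of Klk6 had a median of 0.06, with 8 of 12 higher and none at 1.5-fold. Ptgds had 2398 and 2093 CPM (−0.20).

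**Figure D5:**
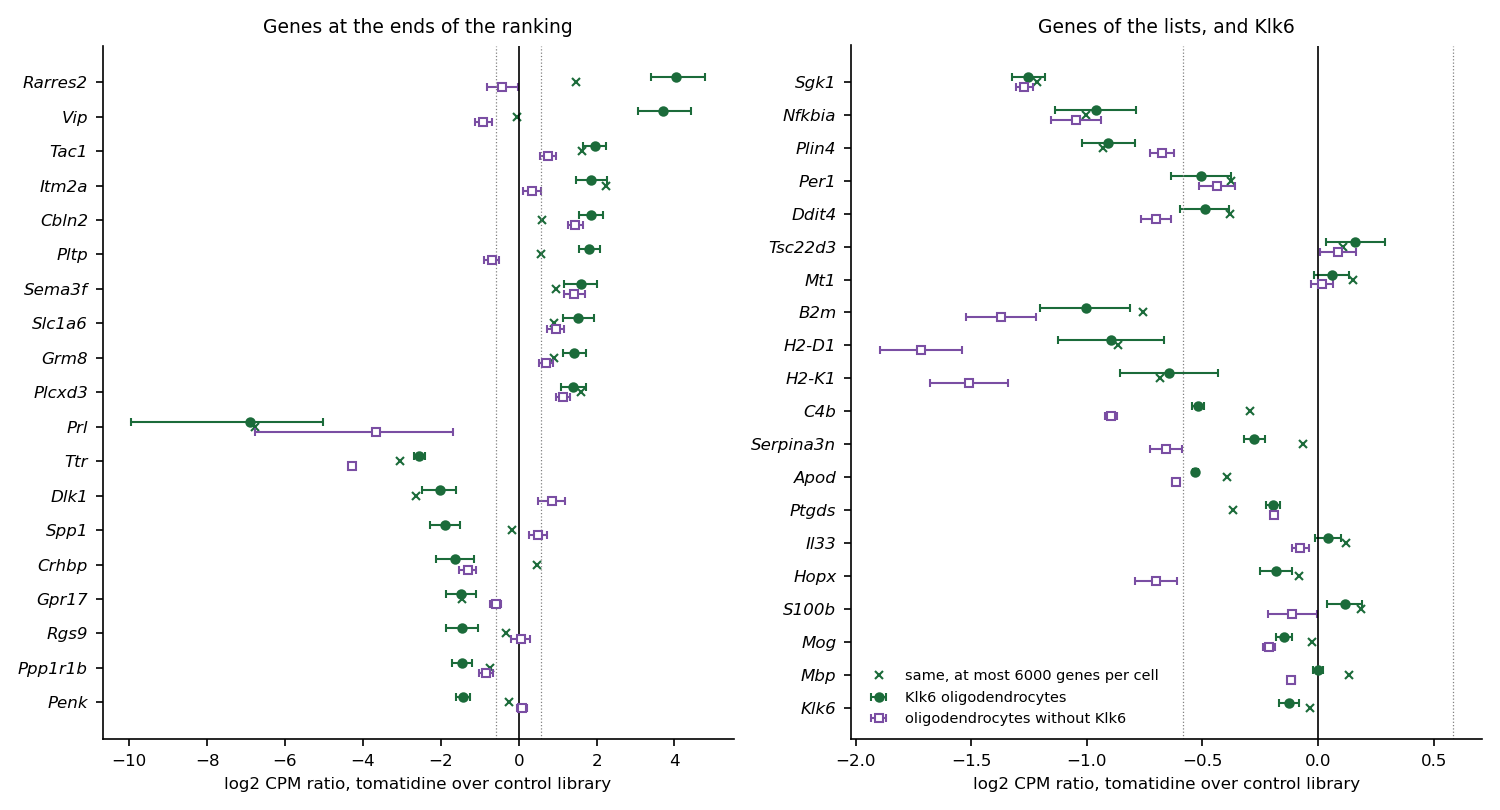
Log2 CPM ratio, tomatidine over control library (horizontal axis), in Klk6 oligodendrocytes (filled circles), in oligodendrocytes without Klk6 (open squares), both with 95% counting intervals, and in Klk6 oligodendrocytes with at most 6000 genes and at most 10% mitochondrial UMIs (crosses); dotted lines mark 1.5-fold. Left, the genes reported from the high and low ends, where Vip goes from 3.72 to −0.04 under those limits; right, genes of the lists and Klk6, where Sgk1 lies at −1.25, −1.27 and −1.22.

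Most myelin genes had slightly lower values in tomatidine. Of 18 myelin protein genes 16 were lower (median −0.11), from Tspan2 (−0.29) to Ppp1r14a (0.01), with Mbp at 3891 and 3890 CPM. Of 18 myelin lipid genes 16 were lower (−0.14), with Ugt8a, which makes galactosylceramide, lowest (−0.35). In oligodendrocytes without Klk6 the medians of both lists were further below 0, −0.22 and −0.23. None of either list reached 1.5-fold, and under the limits on genes and mitochondrial UMIs the medians were 0.01 and −0.05. Of 24 cholesterol genes 13 were higher (0.03), of 18 contact and gap junction genes 13 were lower (−0.11), and of 11 genes of the Ptgds-type state 10 were lower (−0.12), none by 1.5-fold.

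In the remaining lists few genes reached 1.5-fold. Of 12 interferon response genes 9 were lower (median −0.27), with Bst2, or tetherin, at least 1.5-fold lower (18.5 and 10.1 CPM, −0.87; −0.54 with the limits). Of 12 lineage transcription factors 7 were lower, and Tcf7l2, an effector of Wnt signalling, was at least 1.5-fold higher (126 and 195 CPM, 0.63), but had 0.38 with the limits. Of 15 immediate early genes 12 were lower (−0.20), Egr3 by at least 1.5-fold (−0.64), but with the limits on genes and mitochondrial UMIs the median of the 8 genes with enough UMIs was 0.11, with Egr3 at 0.17 and Arc, a synaptic immediate early gene, at 0.65. Of 16 genes of the ATF4 branch 9 were lower (−0.06), with the amino acid transporter Slc7a5 at least 1.5-fold higher (0.69), and at 1.36 with the limits, where its UMIs fell below the minimum. Heat shock (median 0.04), iron (−0.06), kallikrein and inhibitor genes (0.08), known substrates (−0.11) and cell cycle inhibitors with p53 targets (−0.03) had no gene at 1.5-fold, and of 10 genes of newly formed cells Gpr17 alone reached it.

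Neuronal markers had 2582 CPM in control and 3107 in tomatidine Klk6 cells, with 7 of 10 higher and 3 by at least 1.5-fold, among them Gad2, the GABA-synthesizing enzyme (86.8 and 193 CPM, 1.15). Markers of oligodendrocyte precursors were lower for 7 of 7, 3 of them by 1.5-fold (summed 442 and 321 CPM), astrocyte markers had 1979 and 2062 CPM, and endothelial markers 163 and 204. The part of these cells in the ratios above was not tested.

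The study followed senescence through Cdkn1a and Cdkn2a, which encode the cyclin-dependent kinase inhibitors p21 and p16. It also used DNA damage foci at telomeres and secreted inflammatory factors. From its single-cell data the paper reported lower p21 specifically in brain endothelial cells and no significant p16 change. Cdkn1a had 103 UMIs in control Klk6 cells (11.02 CPM, in 9.33% of cells) and 52 in tomatidine (6.91 CPM, 4.62%), a log2 ratio of −0.67 (−1.18 to −0.18). Cdkn2a had 33 UMIs (3.53 CPM, 2.80% of cells) and 6 UMIs (0.798 CPM, 1.03%), a log2 ratio of −2.15 (−3.69 to −0.87). Both lay below the minimum set for the ranking, so the values rest on few cells. In oligodendrocytes without Klk6 the ratios were −0.45 (−0.80 to −0.11) for Cdkn1a and −1.08 (−2.19 to −0.06) for Cdkn2a. Under the limits on genes and mitochondrial UMIs the ratios in Klk6 cells were −0.62 (−1.30 to 0.04) for Cdkn1a and −1.36 (−3.15 to 0.14) for Cdkn2a, both within counting error of 0.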

How the data were processed

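By the study's methods the authors aligned the probe reads to mm10 with Cell Ranger (8.0.0 in the submitters' processing notes, 7.1.0 in the file header) and deposited filtered UMI counts of 19059 genes per cell: 279525565 UMIs for control and 259059908 for tomatidine. Members and gene lists were chosen with earlier results of these data known. Counts were summed over the cells of a library and divided by their total (CPM). A gene was listed when the pooled level predicted at least 100 UMIs in each arm. No test or doublet caller was used: shares have exact binomial intervals, their differences Newcombe intervals, and CPM ratios exact conditional binomial intervals. Comparison classes were gated like the oligodendrocytes. Named were the genes of the rule, the extremes and best known members of each of 24 lists, the 10 genes at each end of both rankings, and Cdkn1a and Cdkn2a. A few genes that these rules name are not reported here. Other list members at 1.5-fold, Klk8 and Klk9 were named after their values were seen. Thinning drew 1500 UMIs per cell. Alternatives varied the limits, fold, minimum, scaling, depth and highest cell; omission of each gene's highest cell and of marker-bearing cells was added after seeing the data. Python 3.11.15, numpy 2.4.6, scipy 1.17.1, pandas 2.3.3, R 4.3.3 and edgeR 4.0.16 (TMM factors only) were used, and the scripts were tested on simulated data.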

Additional observations from a re-analysis of the deposited data

Results flagged for a closer look

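In 3 genes at the ends of the ranking the ratio of tomatidine over control was past 1.5-fold in opposite directions in Klk6 oligodendrocytes and in oligodendrocytes without Klk6; with 1 library per diet the difference was not tested. Vip had a log2 ratio of 3.72 in Klk6 oligodendrocytes and −0.91 in those without Klk6. Pltp had 1.81 and −0.70, and Dlk1 −2.03 and 0.84. A single tomatidine cell held 91.0% of the tomatidine Klk6-cell UMIs of Vip and 68.3% of those of Pltp. For Dlk1 a single cell held 47.2% of the UMIs in control and 66.0% in tomatidine. Without the highest cell of each library the log2 ratio in Klk6 oligodendrocytes was 0.39 for Vip and 0.46 for Pltp, but −2.67 for Dlk1. Rarres2, Spp1, Rgs9 and Penk also had ratios of opposite sign, but theirs stayed below 1.5-fold in cells without Klk6 (−0.42, 0.49, 0.05 and 0.09).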

How the results depend on the processing

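No paired analysis was possible because each diet had 1 library. The share of oligodendrocytes with at least 2 Klk6 UMIs kept a difference within counting error at thresholds of 1 and 3 UMIs and at 3000 UMIs per cell, while the summed Klk6 level over all oligodendrocytes differed by −0.24 (log2). Between the diets, the limits on genes and mitochondrial UMIs gave 38 genes higher and 17 lower, 20 predicted UMIs gave 700 and 245, no minimum 1629 and 821, and a fold of 2 gave 41 and 17; at least 30 marker UMIs per 10000 gave 81 higher and a Klk6 threshold of 3 UMIs 144. The share of higher among these genes was 79.7% as reported, 69.1% under the limits, 56.3% at 30 per 10000, 67.9% at 3 Klk6 UMIs, 66.7% with TMM and 66.5% with no minimum. Reversed were Vip (−0.0409) and Crhbp (0.47) under the limits and Pltp (−0.59) with oligodendrocyte markers 10 times the others. For Klk6 over no Klk6, lower genes numbered 283 under the limits, 176 at 10 times, 51 at 30 per 10000 and 348 with depth weighting; 20 predicted UMIs gave 200 higher and 196 lower, no minimum 382 and 452, and a fold of 2 gave 30 and 14. The share of higher was 61.1% as reported, 72.3% with TMM, 71.6% centred on the median, 29.4% under the limits, 41.9% at 10 times, 33.2% with depth weighting, 50.5% at 20 predicted UMIs and 45.8% with no minimum, so which direction was more frequent depended on these settings. The cause was not tested. Of the alternative values of named genes, 276 of 290 between the diets and 295 of 300 for Klk6 were past the fold in either direction. The reversed Pltp is counted among them. Settings that changed only the minimum or the fold left the ratios as they were. The 290 also hold marker-free values of genes outside the ends, such as Apod. These counts are therefore no measure of how stable the ranking was. Intervals cover counting error only, and depth limits genes with few UMIs, such as Cdkn2a.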
